A study of Mus musculus with 18 samples.

Results

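The 69 genes described here encode potassium channel subunits, with symbols that begin with Kcn. The deposited table lists 94 such symbols. Kcnj10 and Kcnj8 were set aside, since they are known from satellite glia and pericytes. A gene was kept when it reached 1 CPM (a read count put on a total common to all libraries) in at least 4 of 16 libraries, a filter that 14214 of 22021 listed genes passed. Of the Kcn symbols 23 stayed under the filter, and 5 of these were at 0 in all 16 libraries. Kcnk7 lay just inside with 4 libraries at 1 CPM or more, and Kcne1l, Kcnh5, Kcnq1 and Kcns2 lay just outside with 3 each. Kcnf1 passed through 5 input libraries and 0 TRAP libraries, so it had to be lower in TRAP. Kcng4 and Kcnn3 reached 1 CPM in 8 input and 3 TRAP libraries, and Kcnj15 and Kcnj16 in 8 and 2. They too met the filter through input, so lower values in TRAP were favoured in advance.

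Potassium channels let potassium leave a neuron, which sets its resting potential, ends action potentials and limits repetitive firing. Voltage-gated (Kv) channels are tetramers of pore subunits that bind auxiliary subunits, and calcium- or sodium-activated, inwardly rectifying and two-pore-domain channels complete the family. In sensory neurons of the dorsal root ganglion, loss of potassium current is known to accompany hyperexcitability after nerve injury. Paclitaxel, a chemotherapeutic drug that stabilises microtubules, is known to cause painful peripheral neuropathy.

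The libraries came from dorsal root ganglia of Nav1.8-TRAP mice, littermates of both sexes aged 8 to 12 weeks. All groups carried Cre recombinase driven from the promoter of Scn10a, which encodes the nociceptor sodium channel Nav1.8, on a C57BL/6J background. All also carried the Rosa26fsTRAP allele, which in Cre-expressing cells yields ribosomal protein L10a fused to EGFP. Translating ribosome affinity purification (TRAP) with antibodies against GFP recovers ribosome-bound mRNA from these cells, which are mostly nociceptors. From each homogenate 200 µl gave an input library and 800 µl a TRAP library, both read from the 3′ ends of transcripts. The groups were normal input, normal TRAP, paclitaxel input and paclitaxel TRAP, with 4 biosamples in each (1 to 4 normal, 5 to 8 paclitaxel). Paclitaxel mice received 4 intraperitoneal injections of 4 mg/kg, every other day over 8 days, 16 mg/kg in all. The protocol also describes vehicle-treated mice, and whether the samples labelled Normal are these is not stated. The number of mice in a biosample is not stated. P-values for paclitaxel against normal measure only the spread between these biosamples. Those for TRAP against input and the interaction measure only how the difference of TRAP and input varied from biosample to biosample. Biosample 7 consists of 2 subsamples, whose values were averaged.

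Reads over the listed genes numbered 4266015 to 14478010 per input library and 5972337 to 32713517 per TRAP library, where 3 reads correspond to 0.0917 to 0.703 CPM. With the subsamples averaged, genes at 1 CPM or more ranged from 13152 to 14043 over inputs and from 9715 to 13228 over pulldowns. The pulldowns with the fewest were those of biosamples 1, 2, 6 and 5. Before averaging, the TRAP subsamples 1 and 2 of biosample 7 held 8081 and 11945, the former being the fewest of any library. The 12 nociceptor markers had sums of 4560 to 7765 CPM in input, against 8961 to 11800 CPM in TRAP. By limma 4 of these 12 were higher and 2 lower (Calca and Trpv1) in normal TRAP, and 8 were higher and 0 lower in paclitaxel TRAP. Scn10a was higher in TRAP by 0.59 on the log2 scale in normal and 1.30 in paclitaxel mice. The 10 myelinating Schwann cell markers summed to 5944 to 10640 CPM in input and 1987 to 3179 CPM in TRAP, so RNA of these glia was lower but present in the pulldown. In bulk samples of this kind, fewer cells of a type and less RNA per cell cannot be told apart.

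The 250 bases upstream of starts in RefSeq (build GRCm38.p6) are shown for Kcnip2 (chr19:45816064-45816313) and Kcnip4 (chr5:48599683-48599932 and chr5:49285660-49285909), the members that rose in TRAP after paclitaxel. All lie on the minus strand and read 5′ to 3′ along the gene, and capitals mark GGGCGG, the GC box.
Kcnip2: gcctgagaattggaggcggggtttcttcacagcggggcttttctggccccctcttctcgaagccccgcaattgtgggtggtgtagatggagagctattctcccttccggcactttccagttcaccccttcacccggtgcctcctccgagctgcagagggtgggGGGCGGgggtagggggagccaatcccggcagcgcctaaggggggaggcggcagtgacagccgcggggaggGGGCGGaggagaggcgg
Kcnip4 start nearer the gene end: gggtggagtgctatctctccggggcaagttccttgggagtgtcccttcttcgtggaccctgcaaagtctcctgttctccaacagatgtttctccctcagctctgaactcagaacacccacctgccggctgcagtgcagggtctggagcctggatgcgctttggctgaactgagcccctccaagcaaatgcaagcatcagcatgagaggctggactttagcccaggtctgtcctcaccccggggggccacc
Kcnip4 start farther from the gene end: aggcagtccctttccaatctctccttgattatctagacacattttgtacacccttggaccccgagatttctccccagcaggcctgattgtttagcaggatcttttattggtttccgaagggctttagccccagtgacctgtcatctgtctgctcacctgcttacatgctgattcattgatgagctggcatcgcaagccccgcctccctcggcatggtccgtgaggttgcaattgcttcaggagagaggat
The promoter table held 50 of the 69 members with 72 starts. The stretch of Kcnip2 held 2 GC boxes, and those of Kcnip4 held no match to any motif searched on both strands: the TATA box TATAAA, the GC box GGGCGG, the core of the cyclic AMP response element TGACG and the E-box CACGTG. Over all 32851 stretches of this length 32.7% held the GC box, 12.4% the TATA box, 17.8% the cyclic AMP element core and 6.02% the E-box. Over the 72 member starts the shares were 40.3%, 4.17%, 12.5% and 6.94%. A match is a description of the letters in this window.

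The levels show which potassium channel mRNAs the ganglion and its Nav1.8 neurons held. Because these reads come from transcript ends, CPM was compared between genes without division by length. All levels below are in CPM. The members summed to 2114 to 2623 in normal input, 1615 to 2222 in normal TRAP, 2438 to 2787 in paclitaxel input and 2352 to 2945 in paclitaxel TRAP. In normal input the highest mean level was that of Kcna2 (Kv1.2, an axonal low-threshold channel) at 244 ± 77.6 (SD, n = 4). Kcnb2 followed at 172 ± 31.5, and Kcnab2 at 139 ± 20.6, Kcna1 at 128 ± 38.2, Kcna6 at 118 ± 16.8 and Kcnd1 at 104 ± 7.29 were also among the 8 highest means, which together held 51.5% of the members' CPM. Kcna2 and Kcnb2 differed by less than the SD of Kcna2, and from Kcnab2 to Kcnd1 those named next to each other differed by less than the larger of their SDs.

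In normal TRAP the order began with Kcnab2, the cytoplasmic Kv beta 2 subunit, at 206 ± 35.6 (SD, n = 4) and Kcnd1, the A-type channel Kv4.1, at 194 ± 51.1. Kcna2, Kcna6, Kcnab1 and Kcnb2 were also among the 8 highest, with Kcnb2 at 59.3 ± 45.6. In paclitaxel TRAP the order began with Kcnip2 (KChIP2, a calcium-binding subunit of Kv4 channels) at 300.2 ± 122, ahead of Kcna6 at 189.6 ± 39.3. Kcnip2 was not among the first 8 in either normal group, and in paclitaxel input it stood at 171 ± 47.0.

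Fewer members were detected in the pulldowns that held fewer genes of any kind. In input libraries 63 to 68 of the 69 members reached 1 CPM. In normal TRAP the number was 38, 44, 55 and 58 in biosamples 1 to 4, and in paclitaxel TRAP it was 52, 46, 60 and 64 in biosamples 5 to 8. Members at 1 CPM or more in every library numbered 32, and 59 reached that level in all 8 input libraries.

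**Figure D1:**
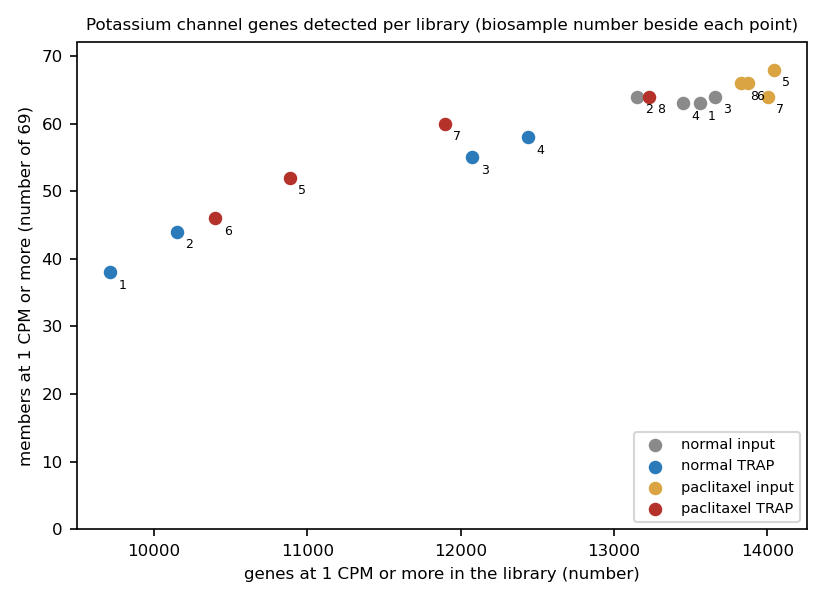
Number of the 69 members at 1 CPM or more (vertical axis) against the number of all genes at 1 CPM or more (horizontal axis) in each of 16 libraries, coloured by group and marked with the biosample number. The 8 input libraries sit between 63 and 68 members, and the pulldowns of biosamples 1, 2, 5 and 6 sit between 38 and 52.

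Setting TRAP against the input of the same homogenate asks which channel mRNAs are more or less abundant on ribosomes of Nav1.8-expressing cells than in the whole extract. In normal mice 2 of 69 members (2.9%) were higher in TRAP at an adjusted p under 0.05 by limma, where 5.09% of all tested genes were higher. A further 24 members (34.8%) were lower, where 24.7% of all tested genes were lower. Kcnf1, Kcng4, Kcnn3, Kcnj15 and Kcnj16 are among these 24 and met the filter through input libraries. The lower group held all 4 genes of the EAG, ERG and ELK family, Kcna1, Kcna2, Kcnb2, Kcnd2, Kcnq3 and Kcnq5. The median log2 change was -0.73 over members and -0.66 over all genes. In paclitaxel mice 4 members (5.8%) were higher, where 4.92% of all genes were, and 9 (13.0%) were lower, where 23.0% of all genes were. Kcnj15 and Kcnj16 are among these 9. The medians were then -0.43 over members and -0.56 over all genes.

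These counts depended on the scaling. Median-ratio scaling raised the median of all genes by 0.33 in normal and 0.27 in paclitaxel mice, quantile normalization by 0.66 and 0.60, and edgeR by 0.21 and 0.20. The members' calls in normal mice then became 5 higher and 10 lower, 4 and 4, and 4 and 3, and the higher share of all called genes became 45.1%, 48.5% and 67.2%. In paclitaxel mice the members' calls became 10 higher and 8 lower, 9 and 5, and 9 and 2, with higher shares over all genes of 39.3%, 47.6% and 59.9%. They also depended on the libraries: without biosample 1, 2 or 3, normal calls numbered 9, 14 or 13 in place of 26, while the share of all genes called went from 29.8% to 16.4%, 23.5% or 21.3%. Without biosample 5 or 6, paclitaxel calls numbered 7 or 6 in place of 13, and the share of all genes went from 27.9% to 15.0% or 14.4%. With biosamples 3, 4, 7 and 8 alone, 0 higher and 8 lower members passed in normal mice, and 2 and 5 in paclitaxel mice, where 16.8% and 13.0% of all genes passed. The direction of every passing member held in all settings computed. Some settings could not alter a log2 change, such as another filter or removal of a biosample of the other treatment. Those settings test the call but not the direction. The calls of Kcna1, Kcnb2 and Kcnq3 in normal mice and of Kcna2 and Kcnd1 in paclitaxel mice held in all settings.

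**Figure D2:**
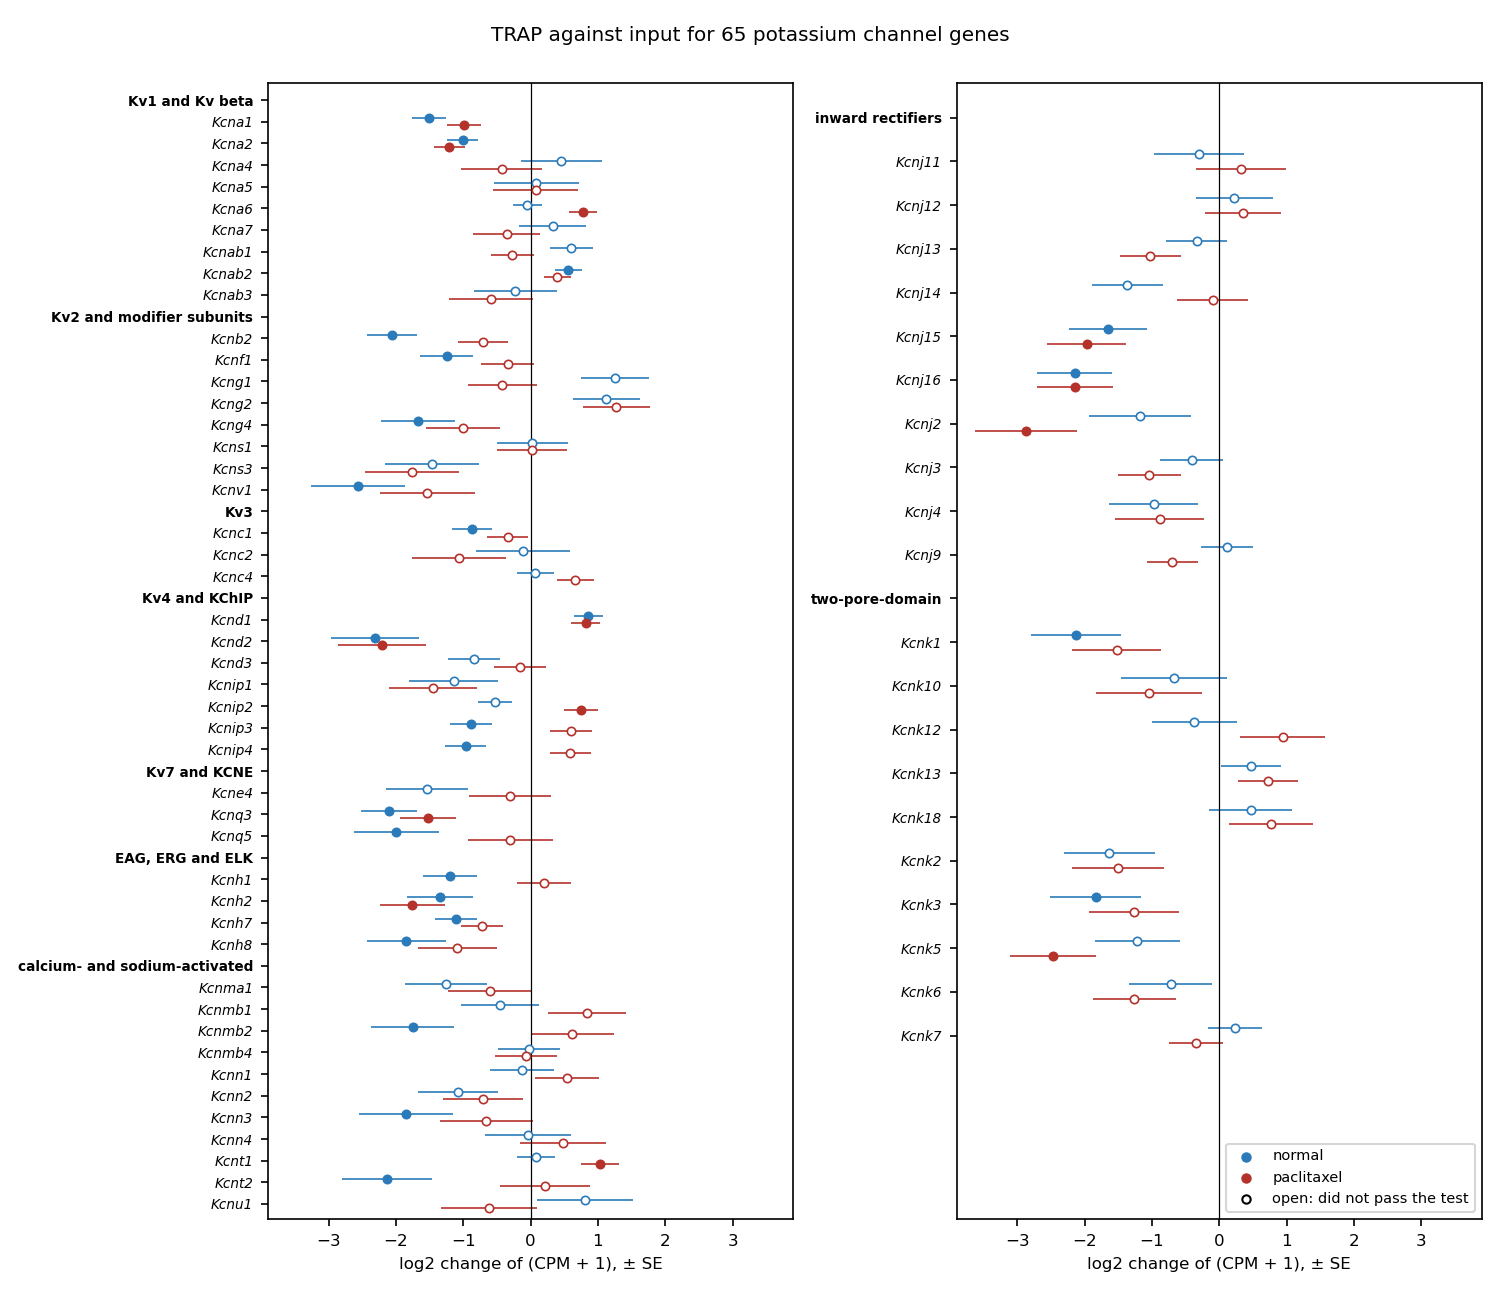
Log2 change of (CPM + 1) between TRAP and input (horizontal axis, bars are SE) for 65 of the 69 members by family, in normal (blue) and paclitaxel (red) mice with 4 biosamples each, where filled points passed the test and open points did not. Kcna1, Kcna2, Kcnd2 and Kcnq3 lie left of 0 with both points filled, and Kcnd1 lies right of 0 with both points filled.

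Kv1 channels open near the resting potential and sit in myelinated axons beside the nodes. Kcna1 (Kv1.1; chr6:126640397-126646384, minus strand, build GRCm38) stood at 113, 83.2, 169.6 and 148 in normal input and at 43.2, 27.0, 64.4 and 44.9 in normal TRAP of biosamples 1 to 4. Every pulldown was below every input. The log2 change was -1.51 (SE 0.25, limma adjusted p = 0.00014). In paclitaxel mice Kcna1 read 189.8, 170.0, 139 and 122 in input and 68.8, 61.1, 123 and 66.5 in TRAP of biosamples 5 to 8. The pulldown of biosample 7 stood apart, within the range of the inputs. The change was -0.99 (SE 0.25, limma adjusted p = 0.00613), and it did not pass under median-ratio scaling, with edgeR, without biosample 5 or 6, or with biosamples 3, 4, 7 and 8 alone.

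Kcna2 (chr3:107101146-107115005, plus strand) stood at 275, 201, 338 and 164 in normal input and 72.7, 103, 175 and 139 in normal TRAP. The groups overlapped, since the lowest input lay below the highest pulldown, and the log2 change was -1.01 (SE 0.23, limma adjusted p = 0.00246). In paclitaxel mice Kcna2 stood at 447, 393, 351 and 301 in input and 153, 142, 178 and 167 in TRAP. Here the groups did not overlap, and the change was -1.21 (SE 0.23, limma adjusted p = 0.000766). The normal call was lost under median-ratio scaling, with edgeR and with biosamples 3, 4, 7 and 8 alone.

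Kcna6 (Kv1.6), 61.9 kb from Kcna1 on the same chromosome and strand, had another pattern. It read 114, 143, 105 and 112 in normal input and 134, 106, 116 and 101 in normal TRAP, overlapping groups that differed by -0.05 (SE 0.21, limma adjusted p = 0.879) on the log2 scale. In paclitaxel mice input stood at 124, 114, 105 and 90.9 and TRAP at 215, 214, 198 and 132. All 4 of these pulldowns exceeded all 4 inputs, and the change was 0.78 (SE 0.21, limma adjusted p = 0.00904). It did not pass without biosample 6 or with biosamples 3, 4, 7 and 8 alone. The difference between treatments, tested as an interaction, was 0.83 and did not pass (limma adjusted p = 0.271).

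Among the Kv beta subunits, which bind Kv1 channels in the cytoplasm, Kcnab2 rose from 141, 128, 167 and 120.3 in normal input to 255, 169.9, 199.7 and 199 in normal TRAP. The groups did not overlap, and the log2 change was 0.56 (SE 0.20, limma adjusted p = 0.0414), a call lost in 8 of 20 settings. Kcnab1 had a change of 0.61 in normal mice (limma adjusted p = 0.144), which passed under median-ratio scaling, and of -0.27 in paclitaxel mice. Kcna4 (Kv1.4), with changes of 0.46 and -0.43, did not pass in any comparison, nor did Kcna5, Kcna7 and Kcnab3. Of the 9 genes of this group, 1 was higher and 2 were lower in each treatment.

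Kv2 channels carry slow delayed rectifier current in the cell body, and the Kv5, Kv6, Kv8 and Kv9 subunits modify them without forming channels alone. Kcnb2 (Kv2.2) fell from 179, 137, 211 and 159 in normal input to 7.13, 35.1, 94.0 and 101 in normal TRAP. All 4 pulldowns lay below all inputs, lowest in biosamples 1 and 2, the pulldowns with the fewest genes. The log2 change was -2.05 (SE 0.37, limma adjusted p = 0.000353) and ranged from -2.52 to -0.91 over the settings. In paclitaxel mice inputs of 195, 196, 183 and 146 lay above all pulldowns, 93.8, 96.2, 128 and 121, and the change of -0.71 did not pass (limma adjusted p = 0.156).

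The modifiers Kcng4 and Kcnv1 were lower in normal TRAP, the call of Kcng4 being lost in 8 of 19 settings. Kcnf1 and Kcng4 are counted among the 24 lower members, but nothing is read from them, since they passed the filter through input libraries. Kcnv1 (Kv8.1) read 11.2, 23.3, 7.46 and 7.03 in input and 0.55, 0.30, 3.1 and 1.00 in TRAP, without overlap, and its log2 change was -2.56 (SE 0.70, limma adjusted p = 0.00944). Its call was lost under quantile normalization, with edgeR, without biosample 2 and with biosamples 3, 4, 7 and 8 alone. In paclitaxel mice 0 of the 9 genes of this group passed. Kcns1 (Kv9.1), a modifier studied in pain, had changes of 0.03 and 0.02, with SEs of 0.52 and 0.52, and Kcns3 of -1.46 and -1.76, none of which passed.

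Kv3 channels repolarise fast-firing neurons. Kcnc1 (Kv3.1) was lower in normal TRAP, at -0.87 (SE 0.30, limma adjusted p = 0.0324) on the log2 scale, a call lost in 7 of 20 settings. Kcnc4 (Kv3.4), a fast inactivating channel of nociceptors, had changes of 0.07 in normal and 0.67 in paclitaxel mice (limma adjusted p = 0.0738), and the latter passed under median-ratio scaling and with edgeR.

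Kv4 channels carry A-type current, which delays firing, and KChIP subunits control their surface level and gating. Kcnd1 (Kv4.1; chrX:7822289-7838280, plus strand) was the member that passed as higher in both treatments. It stood at 93.4, 107, 109 and 106 in normal input and 181, 254, 209 and 133 in normal TRAP. In paclitaxel mice it stood at 83.7, 87.5, 63.4 and 72.4 in input and 139, 169.5, 107 and 132 in TRAP. The groups overlapped in neither treatment. The log2 change was 0.86 (SE 0.22, limma adjusted p = 0.00569) in normal and 0.82 (SE 0.22, limma adjusted p = 0.00829) in paclitaxel mice, and the normal call was lost with biosamples 3, 4, 7 and 8 alone.

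Kcnd2 (Kv4.2) went the other way at a lower level. It read 10.8, 5.41, 7.46 and 7.74 in normal input and 0.15, 0.52, 0 and 4.35 in normal TRAP. In paclitaxel mice it read 10.11, 16.1, 6.31 and 7.96 in input and 3.34, 0, 1.17 and 1.89 in TRAP. No pulldown reached the lowest input of its treatment. The log2 change was -2.31 (SE 0.65, limma adjusted p = 0.0113) in normal and -2.21 (SE 0.65, limma adjusted p = 0.015) in paclitaxel mice, and each call was lost in 5 of 20 settings, edgeR among them. Kcnd3 (Kv4.3) did not pass in either treatment, with changes of -0.84 and -0.16.

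The KChIP genes Kcnip3 and Kcnip4 were lower in normal TRAP, with log2 changes of -0.89 (SE 0.31, limma adjusted p = 0.0336) and -0.96 (SE 0.30, limma adjusted p = 0.0202). These calls were lost in 9 of 20 and 7 of 20 settings, and without biosample 2 the change of Kcnip4 was -0.47. In paclitaxel mice their changes of 0.60 and 0.59 did not pass (limma adjusted p = 0.147 and 0.145), although both passed as higher under median-ratio scaling and with edgeR. Kcnip2 had a change of -0.53 in normal mice (limma adjusted p = 0.107) and was higher in paclitaxel mice at 0.75 (SE 0.25, limma adjusted p = 0.0273). This call was lost in 6 of 20 settings, among them the removal of any single paclitaxel biosample. Without biosamples 5, 6, 7 and 8 in turn, calls over all genes went from 3963 to 2131, 2049, 2527 and 3794.

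Kv7 channels carry the M-current, which holds back repetitive firing. Kcnq3 (Kv7.3) fell from 54.5, 26.0, 51.4 and 38.2 in normal input to 11.6, 1.49, 27.7 and 9.04 in normal TRAP. The input of biosample 2 lay below the pulldown of biosample 3, so the groups overlapped. In paclitaxel mice it stood at 65.0, 66.4, 65.1 and 57.2 in input and 16.5, 19.3, 22.4 and 29.6 in TRAP, with no overlap. The log2 change was -2.10 (SE 0.42, limma adjusted p = 0.000793) in normal and -1.52 (SE 0.42, limma adjusted p = 0.00994) in paclitaxel mice, and the latter call was lost with edgeR and without biosample 5 or 6. Kcnq5 was lower in normal TRAP at -1.99 (SE 0.64, limma adjusted p = 0.022), a call lost in 8 of 20 settings. The auxiliary subunit Kcne4 did not pass.

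All 4 genes of the EAG, ERG and ELK family were lower in normal TRAP, and none of the 4 calls held with edgeR. Kcnh2 (Kv11.1, the ERG channel) was lower in both treatments. It read 50.9, 26.0, 35.5 and 48.8 in normal input and 17.96, 16.0, 11.6 and 14.1 in normal TRAP. In paclitaxel mice it read 25.1, 32.5, 33.1 and 31.8 in input and 15.5, 2.75, 5.56 and 17.6 in TRAP. Pulldowns lay below inputs without overlap in both treatments, and the log2 change was -1.34 (SE 0.48, limma adjusted p = 0.0391) in normal and -1.76 (SE 0.48, limma adjusted p = 0.0101) in paclitaxel mice, calls lost in 10 of 20 and 3 of 20 settings. In normal mice Kcnh7 (ERG3) fell by 1.11, Kcnh1 by 1.2 and Kcnh8 by 1.85 on the log2 scale, calls lost in 6 of 20, 9 of 20 and 6 of 20 settings.

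**Figure D3:**
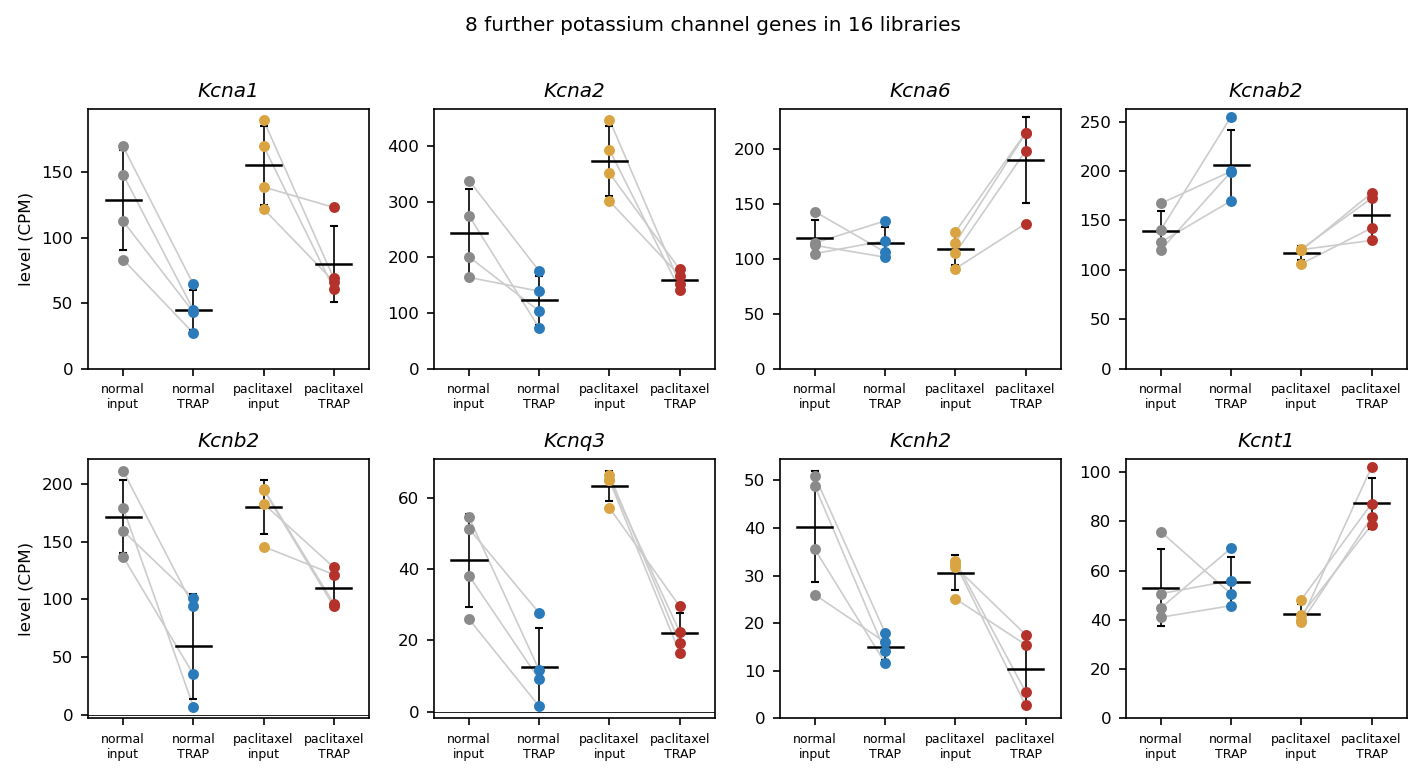
Level in CPM (vertical axis, each panel on its own linear scale) of 8 members in the 4 groups, where points are libraries, grey lines join input and TRAP of 1 biosample, and black marks are mean ± SD (n = 4). Kcna1, Kcna2, Kcnb2, Kcnq3 and Kcnh2 have lower means in TRAP, and Kcna6 and Kcnt1 have all 4 paclitaxel pulldowns above all 4 paclitaxel inputs.

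Of the 11 genes for calcium- and sodium-activated channels, 3 were lower in normal TRAP (Kcnmb2, Kcnn3 and Kcnt2) and 1 was higher in paclitaxel TRAP. The latter was Kcnt1 (Slack, a sodium-activated channel). It stood at 39.8, 42.0, 39.0 and 48.2 in paclitaxel input and 102, 78.6, 81.6 and 87.2 in paclitaxel TRAP. The groups were well apart, and the log2 change was 1.03 (SE 0.28, limma adjusted p = 0.00894), lost without biosample 5 and with biosamples 3, 4, 7 and 8 alone. In normal mice Kcnt1 read 41.1, 75.8, 44.8 and 50.6 in input and 45.8, 50.5, 69.1 and 55.9 in TRAP, overlapping groups with a change of 0.08. The interaction of 0.95 did not pass (limma adjusted p = 0.363). The Kcnn3 call was lost in 14 of 20 settings, and in the TRAP library of biosample 7 its subsamples read 70.4 and 0. Kcnn3 met the filter through input libraries, so nothing is read from its call. Kcnt2 (Slick) had a change of -2.13 (SE 0.67, limma adjusted p = 0.0206) in normal mice, a call lost in 7 of 20 settings. Kcnma1, the pore of the BK channel, its subunit Kcnmb4, and the SK channel genes Kcnn1 and Kcnn2 did not pass, with normal changes of -1.26, -0.02, -0.13 and -1.07.

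Inward rectifiers hold the resting potential, and several are known from glia. Kcnj15 (Kir4.2) and Kcnj16 (Kir5.1) were called lower in both treatments. Both met the filter through input, with 2 TRAP libraries at 1 CPM or more, so nothing is read from these calls. Kcnj16 read 4.66, 1.8, 5.18 and 7.5 in normal input and 0.30, 0.26, 0.31 and 0 in normal TRAP. Kcnj2 (Kir2.1), 38.2 kb from Kcnj16, was lower in paclitaxel TRAP. Its inputs of 7.87, 12.5, 12.5 and 8.11 stood above pulldowns of 0.07, 0, 0 and 3.78, with a change of -2.87 (SE 0.76, limma adjusted p = 0.00764), while in normal TRAP it ranged from 0 to 28.1. The calls of Kcnj15, Kcnj16 and Kcnj2 were lost under quantile normalization. Kcnj15 was lost in 10 of 20 settings in normal and 6 of 20 in paclitaxel mice, and Kcnj16 in 2 of 20 and 4 of 20, edgeR among them in both treatments. The 9 satellite glia markers had sums of 467.0 to 949.2 in input, against 127.4 to 401.9 in TRAP, and their part in these results was not tested. The other 7 inward rectifier genes did not pass; among them Kcnj3 and Kcnj9, G-protein-gated subunits, had paclitaxel changes of -1.04 and -0.70, and Kcnj11, the pore of ATP-sensitive channels, and Kcnj12 had 0.32 and 0.35.

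Two-pore-domain channels carry background current. Kcnk1 and Kcnk3 (TASK-1) were lower in normal TRAP and Kcnk5 (TASK-2) in paclitaxel TRAP. Kcnk5 had inputs of 15.0, 10.1, 12.5 and 9.94 and pulldowns of 7.21, 0, 0 and 2.36 in paclitaxel mice, without overlap, and the log2 change was -2.47 (SE 0.64, limma adjusted p = 0.00662). Its call was lost with edgeR and without biosample 7. Kcnk1 read 0.05, 0.56, 0.57 and 12.7 and Kcnk3 0.05, 0.75, 3.67 and 13.7 in normal TRAP. The pulldown of biosample 4 lay above the lowest normal input for Kcnk1 and above every normal input for Kcnk3. The call of Kcnk1 was lost in 6 of 20 settings and that of Kcnk3 in 12 of 20, edgeR and biosamples 3, 4, 7 and 8 alone being among them for both. The change of Kcnk3, -1.84, became -0.66 with those 4 biosamples. Kcnk18 (TRESK) had changes of 0.47 and 0.77, and Kcnk2 (TREK-1) of -1.63 and -1.51, none of which passed. Kcnk10 and Kcnk12 did not pass either, with normal changes of -0.67 and -0.37, and Kcnk4 (TRAAK) was under the filter with 2 libraries at 1 CPM or more.

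The change with treatment was read from paclitaxel against normal pulldowns. In TRAP 2 of 69 members (2.9%) were higher after paclitaxel by limma, where 1.33% of all genes were, and 0 were lower, where 0.492% of all genes were. In either direction 14 members (20.3%) had an unadjusted p under 0.05, as did 16.9% of all genes, and edgeR called the same 2 genes as higher and 0 as lower. The genes that rose were Kcnip2 and Kcnip4, both KChIP genes, out of 7 genes in the Kv4 and KChIP group. The median log2 change was 0.42 over members and 0.17 over all genes. Median-ratio scaling lowered the median of all genes by 0.16, quantile normalization by 0.18 and edgeR by 0.19, and the higher share of all called genes became 46.4%, 58.7% and 40.4%. The same TRAP libraries enter this comparison and that of TRAP against input.

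Kcnip2 (KChIP2; chr19:45791839-45816061, minus strand) stood at 20.6, 63.9, 117 and 30.5 in normal TRAP and at 248, 159.5, 437 and 356 in paclitaxel TRAP. The lowest paclitaxel pulldown, of biosample 6, lay above the highest normal pulldown, of biosample 3. The log2 change was 2.56 (SE 0.48, limma adjusted p = 0.017). The subsamples of biosample 7 read 415 and 459. In input Kcnip2 read 37.7, 129, 83.4 and 51.8 in normal and 148, 118, 199 and 221 in paclitaxel mice, and the lowest paclitaxel input lay below the highest normal one. This change of 1.28 did not pass (limma adjusted p = 0.0604), but it passed without biosample 2 and with biosamples 3, 4, 7 and 8 alone. Calls over all genes in input then went from 233 to 831 and 126.

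Kcnip4 (KChIP4; chr5:48389502-49524907, minus strand) stood at 56.4, 27.4, 44.0 and 38.3 in normal TRAP and at 152, 123, 212 and 103 in paclitaxel TRAP. The groups did not overlap, and the log2 change was 1.80 (SE 0.33, limma adjusted p = 0.0159). In input it read 73.1, 153, 91.5 and 38.4 in normal and 113, 91.8, 105 and 71.8 in paclitaxel mice, overlapping groups with a change of 0.24 (limma adjusted p = 0.729). Exons of 5730480H06Rik overlap those of Kcnip4 on the other strand, and the strand setting of the counting is not given in the sources used here. That gene read 11.7, 16.0, 15.6 and 12.6 in normal TRAP and 23.7, 6.27, 19.3 and 15.2 in paclitaxel TRAP, overlapping groups below every paclitaxel level of Kcnip4.

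Kcnip3 (KChIP3) had pulldown groups that did not overlap, with 17.0, 30.0, 62.1 and 10.2 in normal and 73.5, 134, 81.3 and 79.9 in paclitaxel TRAP. How many of all genes had such groups was not counted, so this separation is not read as a result. The log2 change of Kcnip3, 1.85 (SE 0.49), did not pass (limma adjusted p = 0.067). It passed in 5 settings, among them quantile normalization, a filter of 5 CPM and leaving out biosample 3. Kcnip1 had a change of 0.66 (SE 0.94) and ranged from 0.06 to 14.2 in paclitaxel TRAP. The pore genes Kcnd1, Kcnd2 and Kcnd3 had changes of -0.48, 0.38 and 0.92, none of which passed. Summed over the 7 genes of the group, normal TRAP held 237.8 to 469.1 and paclitaxel TRAP 615.2 to 885.0. The sum in input was 249.2 to 493.2 in normal and 412.2 to 482.8 in paclitaxel mice.

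Both KChIP calls depended on the libraries. Kcnip2 passed without biosample 3 or 6, and Kcnip4 without biosample 1, 3, 4 or 6, while each other single removal left an adjusted p above 0.05. Calls over all genes moved too, from 259 to 25, 0, 112, 35, 7 and 0 without biosamples 1, 2, 4, 5, 7 and 8. Without biosamples 3 and 6 they numbered 491 and 218. With biosamples 3, 4, 7 and 8 alone neither passed, and 0 of all genes did. The log2 change ranged from 2.18 to 2.99 for Kcnip2 and from 1.55 to 1.96 for Kcnip4 over the settings, with a highest limma adjusted p of 0.417 for both. The summed large-fibre and proprioceptor markers were 2176 to 4559 in normal and 1408 to 1785 in paclitaxel TRAP. Of these 9 markers Nefm alone was called lower, and their median log2 change was 0.23. The satellite glia markers summed to 127.4 to 235.4 in normal and 309.0 to 401.9 in paclitaxel TRAP. Mitochondrial genes held 0.0563% to 0.0861% of CPM in normal and 0.0986% to 0.414% in paclitaxel pulldowns, also without overlap. The part of these values in the KChIP results was not tested.

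**Figure D4:**
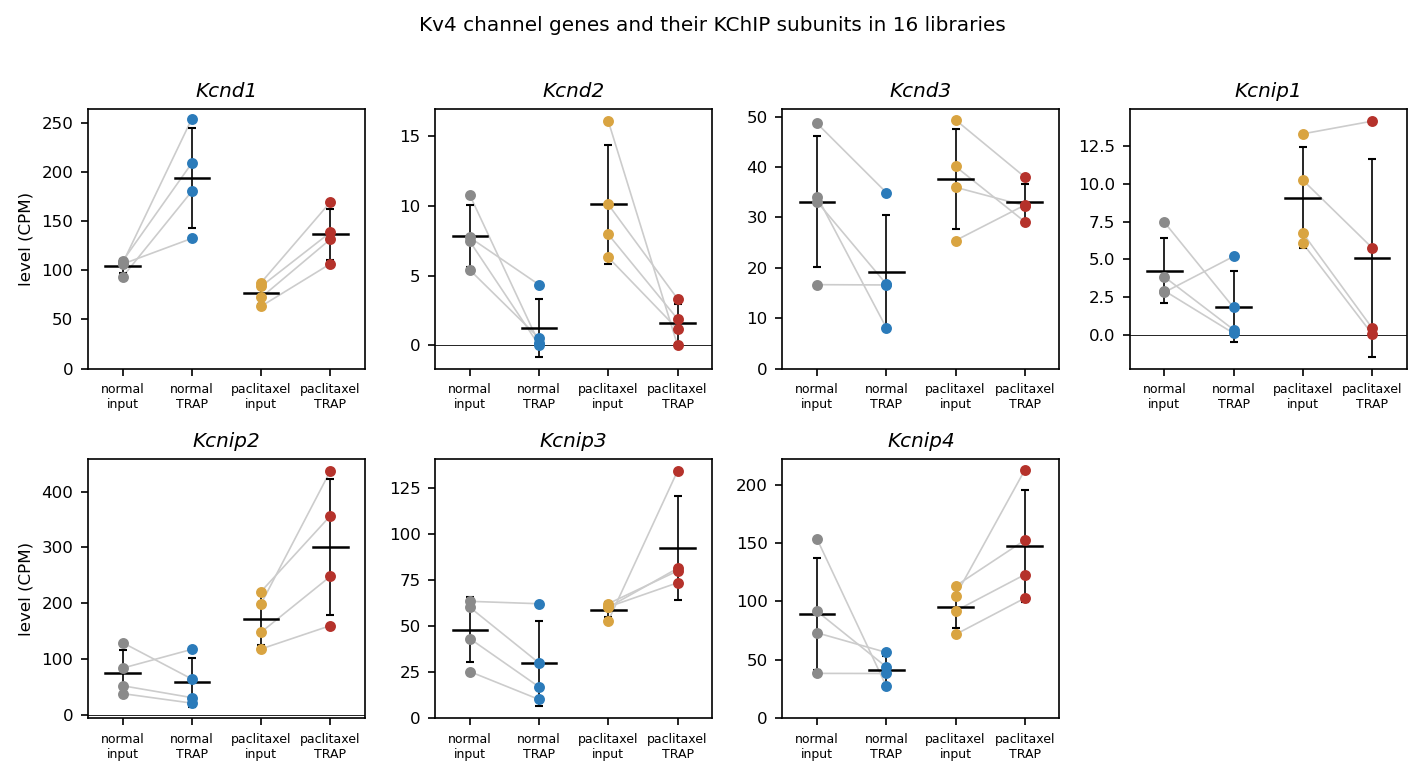
Level in CPM (vertical axis, each panel on its own linear scale) of the 3 Kv4 genes and 4 KChIP genes in the 4 groups, where points are libraries, grey lines join input and TRAP of 1 biosample, and black marks are mean ± SD (n = 4). For Kcnip2, Kcnip3 and Kcnip4 all 4 paclitaxel pulldowns lie above all 4 normal pulldowns. How many of all genes do so was not counted, and Kcnip3 did not pass the test.

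**Figure D5:**
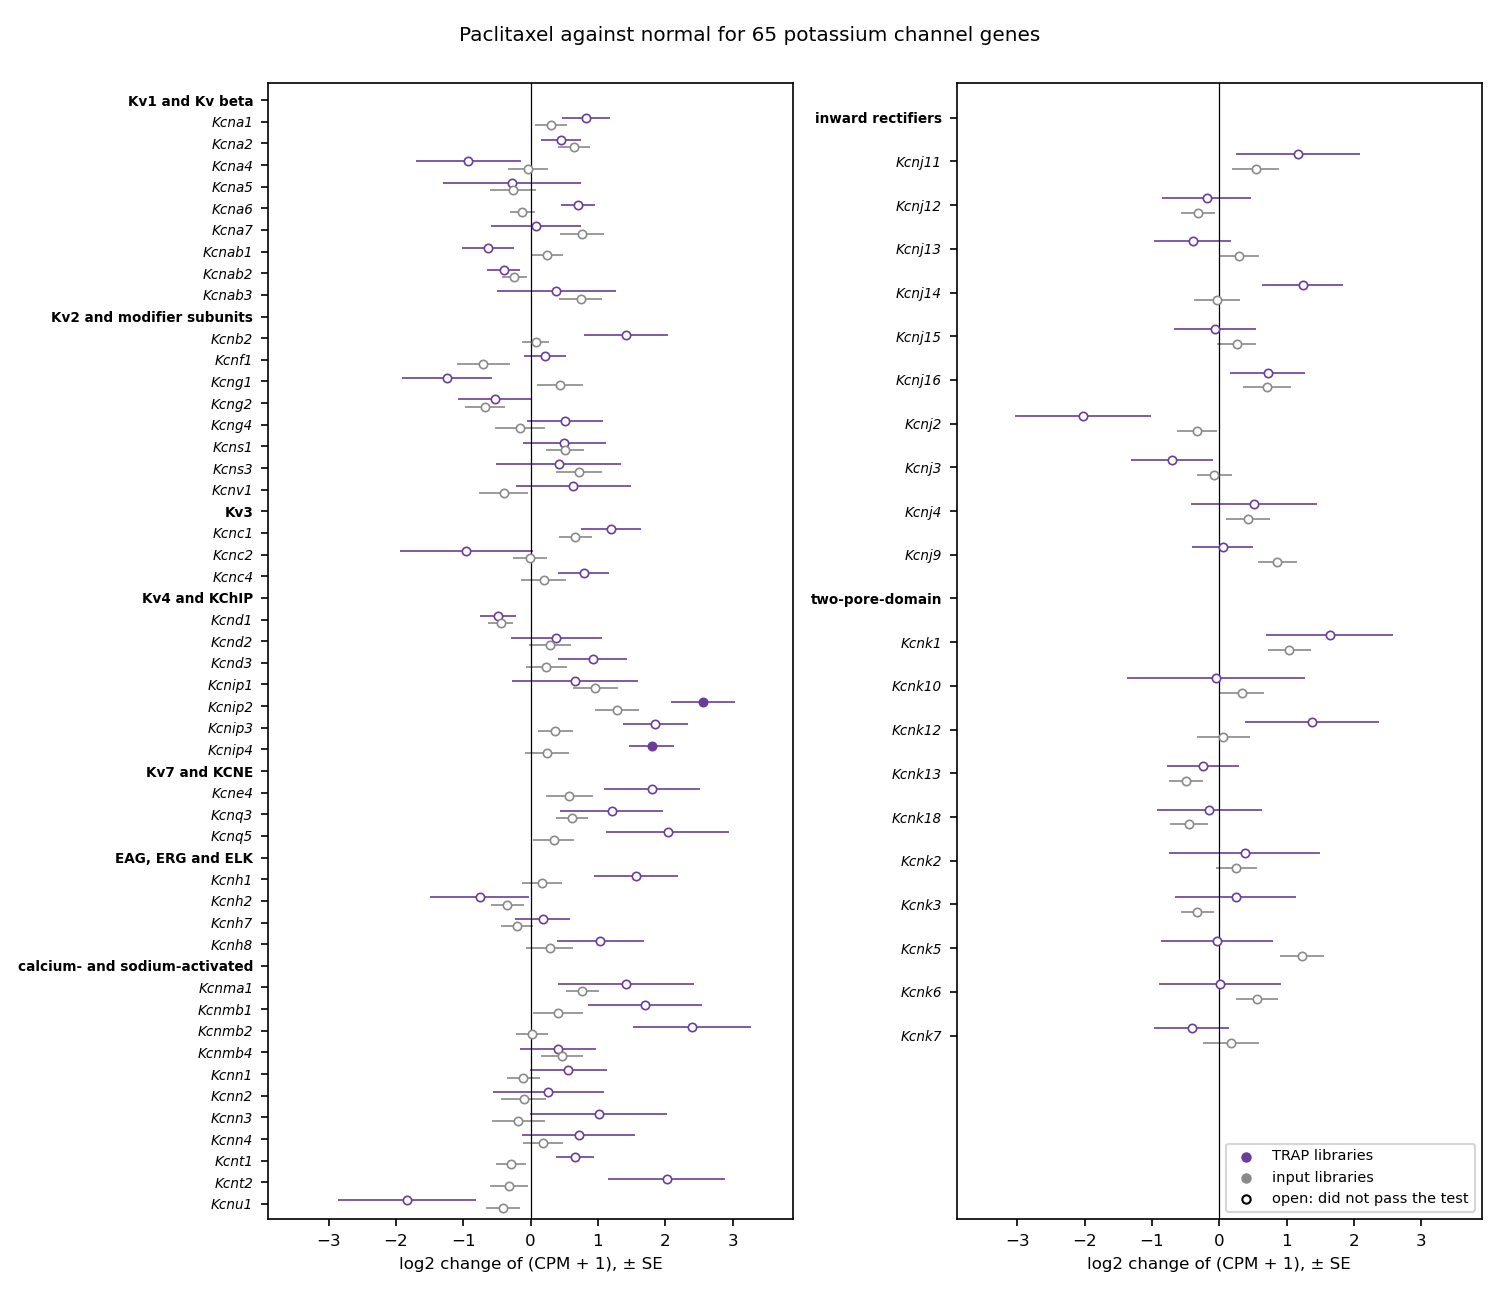
Log2 change of (CPM + 1) between paclitaxel and normal (horizontal axis, bars are SE) for 65 of the 69 members by family, in TRAP (purple) and input (grey) libraries with 4 biosamples a group, where filled points passed the test and open points did not. Kcnip2 and Kcnip4 in TRAP are the filled points, at 2.56 and 1.80.

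Outside the Kv4 group, pulldowns did not overlap between treatments for Kcnc1, Kcnmb2 and Kcnt1, which were higher in paclitaxel TRAP but did not pass. The share of all genes without overlap was not counted, so the absence of overlap is not read as a result. Their log2 changes were 1.19 (limma adjusted p = 0.191), 2.4 (limma adjusted p = 0.179) and 0.66 (limma adjusted p = 0.258). Kcnmb2, a beta subunit of the BK channel, read 0.25, 1.6, 6.92 and 8.04 in normal and 17.8, 37.0, 19.0 and 11.5 in paclitaxel TRAP, and it was lowest in biosamples 1 and 2.

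In the whole extract 0 members passed for paclitaxel against normal by limma, where 1.64% of all genes did, and edgeR called 0. An unadjusted p under 0.05 was found for 14 members (20.3%) and 19.1% of all genes. The lowest adjusted p-values among members were those of Kcnip2 and Kcnk5. Kcnk5 had inputs of 3.69, 4.86, 8.7 and 2.34 in normal and 15.0, 10.1, 12.5 and 9.94 in paclitaxel mice, without overlap. Its log2 change was 1.22 (SE 0.33, limma adjusted p = 0.0723), and it passed without biosample 2 or 3. Calls over all genes then rose from 233 to 831 or 393. Inputs of Kcnma1, Kcnc1, Kcnq3 and Kcnj9 were also higher without overlap, at changes of 0.77, 0.66, 0.62 and 0.86, and did not pass. Here too the share of all genes without overlap was not counted. For Kcnd1 all paclitaxel inputs lay below the normal ones, at -0.44 (limma adjusted p = 0.216).

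Whether TRAP against input differed between the treatments was tested as an interaction. By limma 0 members passed, where 0.190% of all genes did, and edgeR called 0. At an unadjusted p under 0.05 there were 11 members (15.9%), against 11.3% of all genes. The values of Kcnip2, Kcnip3 and Kcnip4 were 1.28, 1.48 and 1.56 (limma adjusted p = 0.122, 0.15 and 0.123). Kcnip2 passed without biosample 3, where calls over all genes rose from 27 to 86. Kcnb2 had 1.34 (limma adjusted p = 0.323). The larger count of lower members in normal than in paclitaxel mice, 24 and 9, is therefore not shown as a difference for any single gene.

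Of 48 genes listed as partners of these channels 45 were tested, and 6 were higher and 14 lower in normal TRAP, 4 higher and 11 lower in paclitaxel TRAP. As shares these were 13.3% and 31.1%, where 5.09% and 24.7% of all genes were called, and 8.89% and 24.4%, where 4.92% and 23.0% were. Amigo1, an auxiliary subunit of Kv2 channels, was higher in both treatments (log2 change 1.00 and 0.96). Dpp6, an auxiliary subunit of Kv4 channels, was higher in both (0.52 and 0.63), as was Lgi1, a secreted protein of Kv1 complexes (0.67 and 1.22). Lgi2, Adam23, Ank3, Ehmt1, Rcor1 and the ubiquitin ligase Nedd4 were lower in both, Lgi2 at -1.33 and -1.80. With edgeR the calls of Adam23, Ank3, Ehmt1 and Rcor1 were lost in both treatments, and that of Nedd4 in normal mice. In normal TRAP Dlg2 was lower at -2.56 and Ehmt2 higher at 1.43. In paclitaxel TRAP Akap5 and Rest were lower at -3.61 and -2.11. The calls of Dlg2, Ehmt2, Akap5 and Rest in these comparisons held in all settings. Dpp10, Vapa and Cntnap2 were lower in normal TRAP, at -0.76, -1.04 and -0.88. After paclitaxel Adam11, a membrane protein linked to Kv1 channels, rose in TRAP by 1.44 (SE 0.32, limma adjusted p = 0.0385). Ehmt2, the histone methyltransferase G9a, known to silence potassium channel genes after nerve injury, had a change of -1.53 (SE 0.36, limma adjusted p = 0.0462). The call of Adam11 was lost in 11 of 19 settings, edgeR among them, and that of Ehmt2 in 10 of 19; neither passed without biosample 1, 2, 4, 5, 7 or 8. The normal calls of Dpp6 and Lgi1 were lost in 13 and 12 of 20 settings. In input and in the interaction 0 partners passed.

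All 69 members were found in GENCODE vM21 on GRCm38, and exons of 4 overlapped exons of another listed gene on the other strand. Besides Kcnip4 these were Kcnh7 with Gca, Kcnj13 with Gigyf2 and Kcnn1 with A230052G05Rik. Without the strand setting, reads of such a pair cannot be told apart. Gigyf2 ranged from 46.7 to 198 over the libraries and Kcnj13 from 0 to 3.68, so the level of Kcnj13 is uncertain.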

How the data were processed

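The deposited table gives 22021 genes in 18 libraries and 2 merged columns, which were not used; 0 library columns lacked a sample. The submitters' processing notes name Cufflinks 2.2.1, TopHat2 2.1.1, FastQC 0.11.5 and Bowtie2 2.2.9, with the build GRCm38.p4. The annotation was GENCODE vM10, per the file headers. The column names deposited by the authors say TPM, but each column holds CPM: all columns share 1 total, and 98.0% to 99.0% of non-zero values gave whole reads to within 0.0051 CPM. Strand setting and molecular identifiers are not given in the sources used here. Subsamples of biosample 7 were averaged.

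Tests used limma 3.58.1 (R 4.3.3, trend on) on log2(CPM + 1), which understates the change of low genes, over 14214 genes with 1 CPM or more in at least 4 of 16 libraries. P-values were two-sided and adjusted over all these genes by Benjamini-Hochberg, with a threshold of 0.05. TRAP against input, and its interaction with treatment, were fitted over 16 libraries with biosample as a block. Input and TRAP of a biosample come from 1 homogenate, and their deviations from the group means correlated at 0.0534 to 0.376, highest with their own partner in 7 of 8 biosamples. Paclitaxel was compared with normal within TRAP and within input (8 libraries each). edgeR 4.0.16 was run on the recovered reads as an alternative and called 1864 genes for TRAP against input in normal mice. The code was tested on simulated data. Settings left out each biosample, or changed the pseudocount, filter, scaling, subsamples or block.

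Genes were named where they were among the 8 largest changes in a direction that passed, were among the 8 highest means in normal input or TRAP, or were listed as of interest in sensory neurons; others named, such as Kcna5, Kcna7, Kcnk5 in input and genes without overlap, were chosen after their values were seen. For 4 members, counted throughout, no value is reported here. Members and lists were chosen with earlier results of these data known. The use of biosamples 3, 4, 7 and 8 alone was chosen after seeing the data. Coordinates come from GENCODE vM21 on GRCm38 and upstream sequences from RefSeq GRCm38.p6.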

Additional observations from a re-analysis of the deposited data

Results flagged for a closer look

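In 18 of 207 groups of 4 libraries whose highest level was at least 5 CPM, 1 library stood far from the other 3; the gap to the nearest of the others took up more of the group's range than Dixon's test allows at 95%. For normally distributed values chance gives this in about 1 in 20 groups. Some groups, such as Kcna7 in normal TRAP, met the limit of 5 CPM only through the flagged library. The 18 of 207 are therefore not compared with that rate. Of the 18, 11 were TRAP groups and 7 input groups. No cause was tested.

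In normal TRAP, Kcna7 was high in biosample 4 at 5.02 CPM, the others spanning 0 to 0.07 CPM (gap 0.986 of the range). Kcnab3 was high in biosample 3 at 7.59 CPM, the others spanning 0 to 0.52 CPM (gap 0.931 of the range). Kcng1 was high in biosample 1 at 7.93 CPM, the others spanning 1.67 to 1.7 CPM (gap 0.995 of the range). Kcnk1 was high in biosample 4 at 12.7 CPM, the others spanning 0.05 to 0.57 CPM (gap 0.959 of the range). Kcnk12 was high in biosample 2 at 9.73 CPM, the others spanning 0 to 0.17 CPM (gap 0.983 of the range). Kcnn4 was high in biosample 1 at 22.1 CPM, the others spanning 2.85 to 5.14 CPM (gap 0.881 of the range).

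In paclitaxel TRAP, Kcna1 was high in biosample 7 at 123 CPM, the others spanning 61.1 to 68.8 CPM (gap 0.876 of the range). Kcng2 was high in biosample 6 at 71.2 CPM, the others spanning 13.8 to 21.9 CPM (gap 0.858 of the range). Kcnip3 was high in biosample 6 at 134 CPM, the others spanning 73.5 to 81.3 CPM (gap 0.871 of the range). Kcnj11 was high in biosample 7 at 21.5 CPM, the others spanning 5.39 to 6.85 CPM (gap 0.909 of the range). Kcnn3 was high in biosample 7 at 35.2 CPM, the others spanning 0 to 1.23 CPM (gap 0.965 of the range).

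In normal input, Kcnh8 was high in biosample 4 at 8.44 CPM, the others spanning 2.83 to 3.48 CPM (gap 0.884 of the range). Kcns3 was low in biosample 4 at 2.58 CPM, the others spanning 6.67 to 7.17 CPM (gap 0.891 of the range).

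In paclitaxel input, Kcnab2 was low in biosample 5 at 106 CPM, the others spanning 120.0 to 121 CPM (gap 0.905 of the range). Kcnh2 was low in biosample 5 at 25.1 CPM, the others spanning 31.8 to 33.1 CPM (gap 0.842 of the range). Kcnj4 was high in biosample 8 at 21.0 CPM, the others spanning 13.6 to 14.6 CPM (gap 0.859 of the range). Kcnn1 was high in biosample 8 at 22.3 CPM, the others spanning 15.7 to 16.7 CPM (gap 0.849 of the range). Kcnq3 was low in biosample 8 at 57.2 CPM, the others spanning 65.0 to 66.4 CPM (gap 0.848 of the range).

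Calls for TRAP against input with such a library in their own treatment were those of Kcna1, Kcnh2 and Kcnq3 in paclitaxel mice. In normal mice they were those of Kcnh8 and Kcnk1. The spread of each gene was taken over all 16 libraries. The normal calls of Kcna1, Kcnab2, Kcnh2, Kcnip3, Kcnn3 and Kcnq3 therefore also drew on flagged paclitaxel groups.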

How the results depend on the processing

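Over 41 results of members that passed and 816 alternative values, 597 kept the call, 219 lost it and 0 changed direction. Changing only the filter, the block or the libraries of the other treatment cannot alter a change of TRAP against input. Direction was not tested in such settings. Calls of 5 results held in all settings. Members that passed for TRAP against input in normal mice numbered 26, where 29.8% of all genes passed. They numbered 15 with median-ratio scaling (21.9% of all genes) and 8 with quantile normalization (19%). With subsample 1 of biosample 7 alone they numbered 14 (19.6%), and with edgeR 7 (13.1%). They numbered 8 with biosamples 3, 4, 7 and 8 alone (16.8%) and 9 to 27 without 1 biosample (16.4% to 30.6%). In paclitaxel mice they numbered 13, then 7 with biosamples 3, 4, 7 and 8 alone and 6 to 14 without 1 biosample. Calls over all genes were 3963, then 1845 and 2049 to 4377. For paclitaxel against normal in TRAP 2 members passed. They numbered 0 without a filter, 4 with a filter of 5 CPM, 0 with biosamples 3, 4, 7 and 8 alone and 0 to 4 without 1 biosample. Calls over all genes were 259, then 0, 729, 0 and 0 to 491. In input the members that passed numbered 0, then 1 (Kcnip2) with biosamples 3, 4, 7 and 8 alone and 0 to 3 without 1 biosample. Calls over all genes were 233, then 126 and 0 to 831. In the interaction 0 members passed, then 0 to 1, and calls over all genes were 27, then 0 to 86. Without the replicate block that pairs input and TRAP, 21 members passed in normal mice, 12 in paclitaxel mice and 0 in the interaction. Calls over all genes were then 3287, 3119 and 0. Without the block Kcnab2, Kcnc1, Kcnh1, Kcnip3 and Kcnn3, among others, did not pass in normal mice, nor did Kcnip2 in paclitaxel mice. The cause was not tested. With 3 reads at 0.0917 to 0.502 CPM in the pulldowns, absence of a low member from a pulldown is not shown, and PCR duplicates are not removed from these counts by any stated step.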
